A study of Homo sapiens with 3 samples.

Results

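The 14-3-3 proteins of human cells are encoded by 7 genes, YWHAB, YWHAE, YWHAG, YWHAH, YWHAQ, YWHAZ and SFN, for the isoforms beta, epsilon, gamma, eta, theta, zeta and sigma. The family was chosen by name, and all 7 genes were found among the 17595 endogenous genes of the count table. RNA 5′ ends were counted per gene in 3 libraries of 1 group, HEK293 cells with no treatment named in the labels. HEK293 is an established line from human embryonic kidney, transformed with adenovirus DNA and grown here in DMEM with glutamine and fetal calf serum. Each library was made from 1000 lysed cells with ERCC control RNAs added at 20000 molecules per cell, and a part equal to 100 cells went into 18 cycles of PCR. The libraries are called 20, 21 and 23 after the index of their column, because the columns carry no replicate number.

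The 14-3-3 proteins are small acidic adaptors that pair into dimers and bind partner proteins, called clients, at phosphorylated serine or threonine. Binding can hold a client in the cytoplasm, shield a site or change its activity, and clients include RAF kinases, CDC25 phosphatases, the death promoter BAD, FOXO factors and YAP1. Most isoforms form mixed dimers. Epsilon favours mixed dimers, and sigma, the product of SFN, pairs mostly with itself and is typical of stratified epithelium. No groups could be compared, so the results are levels, ratios between genes of a library, and differences between libraries. The labels do not state if separate cultures were used, and the 3 libraries may be technical replicates. The p-values of ratios between genes reflect spread among these libraries. They also reflect the spread of other genes, because the moderated test draws each variance towards a value shared by all genes fitted. The p-values of differences between libraries allow for counting error only and measure no spread between cultures.

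The libraries held 1330877 to 1545594 endogenous counts and 3.49 to 3.85% spike counts. Levels are counts per 1000000 endogenous counts (CPM), and 1 count was worth 0.647 to 0.751 CPM. Of 6 genes that HEK293 is known to express all 6 reached 10 CPM, among them VIM and the neurofilament genes NEFM and NEFL. That level was reached by 44.6% of all listed genes. Of 8 markers of differentiated kidney none reached it and 6 were not listed, but LRP2 came close with a mean of 9.36 CPM.

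The promoters of 6 of the 7 genes were matched in a RefSeq table by symbol, and 3 are shown because they stand for the highest, a low and the lowest count of the family. Each run gives the 250 bases before the annotated start, 5′ to 3′ on the gene's strand, in build GRCh38.p14, with each CG pair in capitals. The counts themselves were made on hg19. For each matched gene 1 promoter was used, though some genes have more starts. Annotated coding starts numbered 5 for YWHAE, 4 for YWHAB, 3 each for YWHAH and YWHAQ, and 1 each for YWHAG and SFN. Which start gave the counted RNA ends was not tested. The YWHAE promoter lies at chr17:1400223-1400472 on the minus strand, that of YWHAH at chr22:31944285-31944534 on the plus strand and that of SFN at chr1:26862899-26863148 on the plus strand.
YWHAE: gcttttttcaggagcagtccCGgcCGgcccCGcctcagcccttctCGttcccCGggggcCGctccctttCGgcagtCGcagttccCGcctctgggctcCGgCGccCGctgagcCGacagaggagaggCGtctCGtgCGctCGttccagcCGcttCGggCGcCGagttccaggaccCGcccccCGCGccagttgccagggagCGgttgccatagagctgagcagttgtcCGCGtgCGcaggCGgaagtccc
YWHAH: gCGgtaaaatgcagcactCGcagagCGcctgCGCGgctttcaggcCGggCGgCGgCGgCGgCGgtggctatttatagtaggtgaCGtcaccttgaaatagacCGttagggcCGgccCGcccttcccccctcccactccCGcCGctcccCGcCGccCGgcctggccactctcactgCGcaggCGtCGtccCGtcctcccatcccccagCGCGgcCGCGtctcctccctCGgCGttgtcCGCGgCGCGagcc
SFN: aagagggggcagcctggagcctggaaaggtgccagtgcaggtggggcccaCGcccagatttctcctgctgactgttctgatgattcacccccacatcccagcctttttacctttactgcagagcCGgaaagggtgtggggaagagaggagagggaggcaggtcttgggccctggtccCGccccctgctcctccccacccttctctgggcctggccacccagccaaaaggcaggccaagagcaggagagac

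The CG pairs in capitals run through the first pair of sequences and are nearly absent from the last. YWHAE had 29 of them, YWHAH 34 and SFN 3. The other 3 matched genes were like the first pair, with 28 in YWHAQ, 23 in YWHAG and 21 in YWHAB. The median was 11 over all 27305 promoters of that length and 22 over the 6016 whose gene reached 10 CPM here. At most 3 CG pairs were found in 30.1% of all promoters, in 2.46% of those of genes at 10 CPM or more and in 10.5% of those of listed genes below 10 CPM. GC content spanned 70.4 to 72.0% in the 5 YWHA promoters and was 62.8% in SFN.

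Short motifs were searched by their letters on both strands of the 250 bases. A GC box, GGGCGG, was present in all 6 promoters, against 42.3% of all promoters and 70.2% of those of genes at 10 CPM or more. The ETS core CGGAAG was found in YWHAB, YWHAE, YWHAG and YWHAQ (16.8% and 32.9%), and CCAAT in YWHAB and YWHAQ (33.0% and 37.0%). Of the 6 promoters, that of YWHAH alone held a TATAAA match (11.1% and 4.50%) and the cAMP response element TGACGTCA (1.77% and 3.54%). TGCGCA, the core bound by NRF1, was found in YWHAE and YWHAH (7.05% and 14.1%), and the E-box CACGTG in none of the 6 (6.49% and 9.96%). These matches describe letters in 1 promoter per member gene, leave out its other annotated starts and do not show that a factor was bound.

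Epsilon RNA was the most abundant of the family. YWHAE had 1951, 1753 and 1951 counts in libraries 20, 21 and 23, which is 1322, 1317 and 1262 CPM, with a mean of 1300.5 ± 33.2 CPM (SD, n = 3). It ranked 122nd of the 17595 genes by mean CPM. The libraries lay close together, and the lowest YWHAE value was above every value of the other 6 genes. The genes nearest to it in mean log2 CPM were RPL22, a ribosomal protein gene, at 1322 ± 29.3 CPM and CHCHD2, which encodes a mitochondrial protein, at 1299 ± 25.3 CPM.

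Zeta, beta and theta RNA formed a second tier. YWHAZ, itself often used as a reference gene, had 549, 570.3 and 599 CPM in libraries 20, 21 and 23 (mean 573 ± 25.2, SD, n = 3). YWHAB had 472, 521 and 526 CPM (mean 506 ± 30.2), and YWHAQ had 449.9, 467 and 474 CPM (mean 463 ± 12.2). YWHAZ was above both other genes in each library, while the ranges of YWHAB and YWHAQ overlapped. Their ranks were 283, 331 and 357. Of 13 reference genes, which ranged from GUSB at 18.9 to GAPDH at 3811 CPM, PGK1, at 547 ± 22.7 CPM, lay between YWHAZ and YWHAB, and HPRT1 at 415 ± 17.0 CPM lay just below YWHAQ. Nearest in level were MRPL37 and VDAC1 for YWHAZ (within 0.018 log2 units), XRCC5 and CKS2 for YWHAB (within 0.0093) and MDH1 and ATP5A1 for YWHAQ (within 0.0018).

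Eta and gamma RNA, known from brain, where gamma is a major isoform, were present at lower levels. YWHAH had 160, 119 and 175 counts, or 108, 89.4 and 113 CPM (mean 104 ± 12.6, SD, n = 3). YWHAG had 93, 72 and 102 counts, or 63.0, 54.1 and 66.0 CPM (mean 61.0 ± 6.19). Library 21 was the lowest for both genes, and the ranges did not overlap. These genes ranked 1683rd and 2557th, with UPF3B and PLRG1 next to YWHAH and ECSIT and SMNDC1 next to YWHAG.

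Sigma RNA was at the limit of detection. SFN had 1 count in each library, or 0.678, 0.751 and 0.647 CPM. The 3 pooled counts correspond to 0.689 CPM, with an exact Poisson 95% interval of 0.142 to 2.01 CPM that covers counting error only. SFN thus ranked 13511th, and 22.4% of listed genes were lower. Epithelial marker genes are given beside it, and their part in the SFN level was not tested. Of 12 such markers 6 were listed and 5 reached 10 CPM (KRT18, DSP, KRT8, DSC3 and OCLN). That is 41.7% with unlisted markers counted as below, beside 44.6% of all listed genes, a share without unlisted genes. EPCAM had 1 count in each library like SFN. The keratinocyte genes KRT5, KRT14, KRT6A, DSG3 and TP63 and the cadherin gene CDH1 were not listed. The summed level of the 12 markers was 188 to 213 CPM in the libraries, 200.1 ± 12.2 CPM on average.

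**Figure D1:**
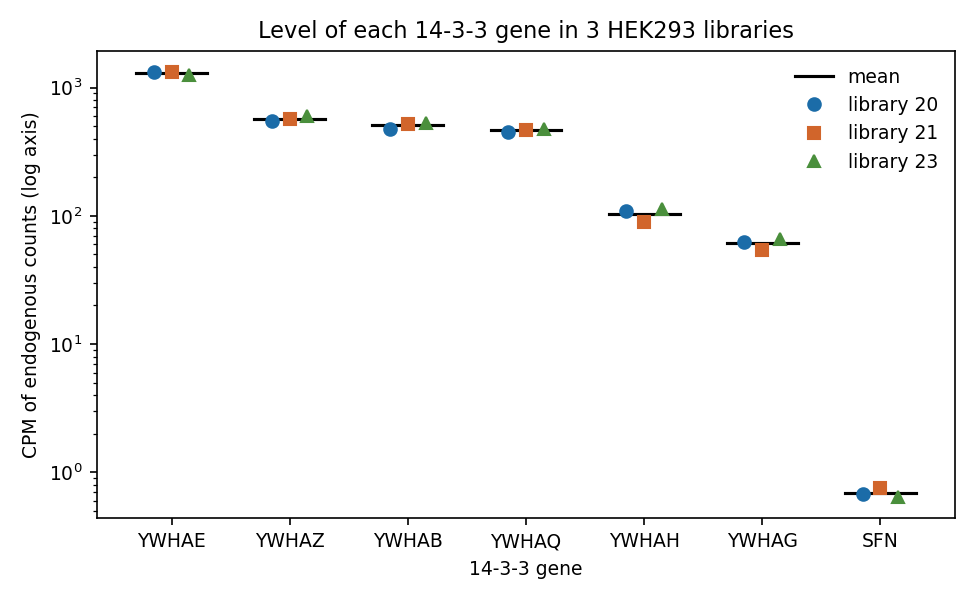
CPM of each 14-3-3 gene on a log axis, with 1 point per library (20, 21 and 23) and a bar at the mean of the 3. YWHAE stands at 1300.5 CPM, YWHAZ, YWHAB and YWHAQ between 449.9 and 599 CPM, YWHAH and YWHAG between 54.1 and 113 CPM, and SFN below 1 CPM.

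Together the 7 genes took 0.296, 0.302 and 0.304% of endogenous counts in libraries 20, 21 and 23, a mean of 0.301% ± 0.0039 (SD, n = 3), or 3008 ± 39.4 CPM. The exact binomial 95% intervals of the 3 shares, 0.288 to 0.305%, 0.293 to 0.311% and 0.295 to 0.313%, overlapped. YWHAE alone made up 44.6, 43.6 and 41.5% of the family's counts, 43.2% ± 1.58 on average. YWHAZ made up 19.0% ± 0.61, YWHAB 16.8% ± 0.79 and YWHAQ 15.4% ± 0.20, so that the leading 4 isoforms held 94.5% ± 0.63. YWHAH held 3.45% ± 0.42 and YWHAG 2.03% ± 0.21. SFN, with 1 count a library, held 0.0230% on average, with exact binomial 95% upper bounds of 0.119 to 0.139% in single libraries.

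**Figure D2:**
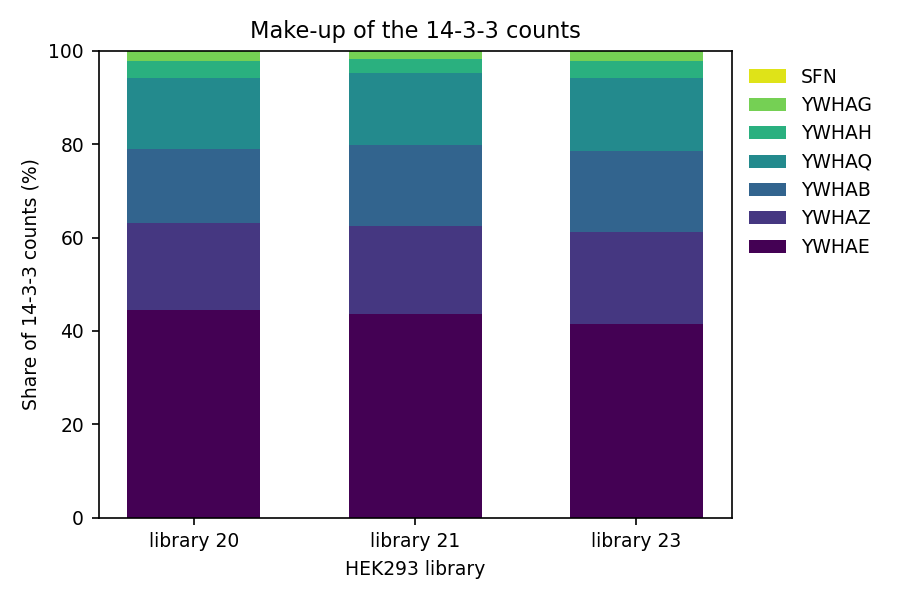
Share of the 14-3-3 counts, in percent, taken by each gene in libraries 20, 21 and 23. YWHAE fills 41.5 to 44.6% of each bar, and SFN, at 0.0230% on average, is too thin to be seen.

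The spikes give an estimate in molecules per cell. Counts were divided by the summed spike counts of the library and multiplied by the labelled 20000 spike molecules per cell, which assumes that cell RNA and spikes were captured alike. On that scale YWHAE had 686, 658 and 697 molecules per cell in libraries 20, 21 and 23 (680.3 ± 20.3, SD, n = 3) and the whole family 1575 ± 91.7. YWHAZ came to 300.2 ± 26.7, YWHAB to 265 ± 23.3 and YWHAQ to 243 ± 16.4. YWHAH came to 54.5 ± 9.07, YWHAG to 32.1 ± 4.75. The 3 pooled counts of SFN came to 0.361 molecules per cell, with an exact Poisson 95% interval of 0.0745 to 1.06. The order of the genes is the same as in CPM, since both scales divide all genes of a library by 1 number.

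Ratios between members were taken within each library as log2 of (count + 0.5) over (count + 0.5). They were tested with limma's moderated test fitted across 11423 genes against each member in turn, with Benjamini-Hochberg adjustment over all of them. A call needed an adjusted p under 0.05 whichever gene served as reference, and the larger adjusted p is given unless a reference is named. SFN had too few counts to enter. The protocol keeps 5′ terminal fragments, so counts were not divided by length. Of the 15 pairs of the other 6 genes, 13 passed, with the gene of higher mean above in 3 of 3 libraries. At this precision nearly any gene differs from another: 99.6% of all genes differed from YWHAE, 99.0% from YWHAZ, 98.7% from YWHAB, 98.8% from YWHAQ, 92.8% from YWHAH and 90.2% from YWHAG. The 13 calls are therefore no more than the background, and the pairs that missed the threshold are the less common case.

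Along the order of levels there were 3 clear steps. YWHAE exceeded YWHAZ by log2 ratios of 1.27, 1.21 and 1.07 in libraries 20, 21 and 23, a mean of 1.18 ± 0.099 (SD, n = 3) or 2.27-fold (limma adjusted p = 0.00025). YWHAQ exceeded YWHAH by 2.05, 2.38 and 2.06, a mean of 2.16 ± 0.19 or 4.48-fold (limma adjusted p = 3.8e-05). YWHAH exceeded YWHAG by 0.78, 0.72 and 0.78, a mean of 0.76 ± 0.033 or 1.69-fold (limma adjusted p = 0.0017). In all of these steps each library showed the same direction. Below YWHAG, SFN was lower by a ratio of 89.0 in pooled counts, with an exact binomial 95% interval of 30.1 to 434, and YWHAE exceeded SFN by a ratio of 1885 with an interval of 645 to 9143.

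Within the second tier the neighbours did not separate. YWHAZ over YWHAB gave log2 ratios of 0.22, 0.13 and 0.19, a mean of 0.18 ± 0.046 (limma adjusted p = 0.17), with a 95% interval of the ratio from -0.11 to 0.47. YWHAB over YWHAQ gave 0.07, 0.16 and 0.15, a mean of 0.13 ± 0.051 (limma adjusted p = 0.31 with YWHAB as reference). With YWHAQ as reference the limma adjusted p was 0.25 and the interval ran from -0.13 to 0.38. The first gene, placed first by its mean over these same libraries, was above the second in 3 of 3 in both pairs. The intervals rest on the moderated variance and are wider than the SDs of these pairs alone would give. They reach 0.47 and 0.38, so a missed threshold does not show equal levels. The ends of the tier did pass, YWHAZ over YWHAQ at 0.30 ± 0.030 (limma adjusted p = 0.033), but this call was lost without library 20, 21 or 23 (limma adjusted p = 0.091, 0.12 and 0.085). With edgeR's quasi-likelihood fit, which treats the reference count as free of error, YWHAZ over YWHAB passed at 0.18 (adjusted p = 0.022).

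**Figure D3:**
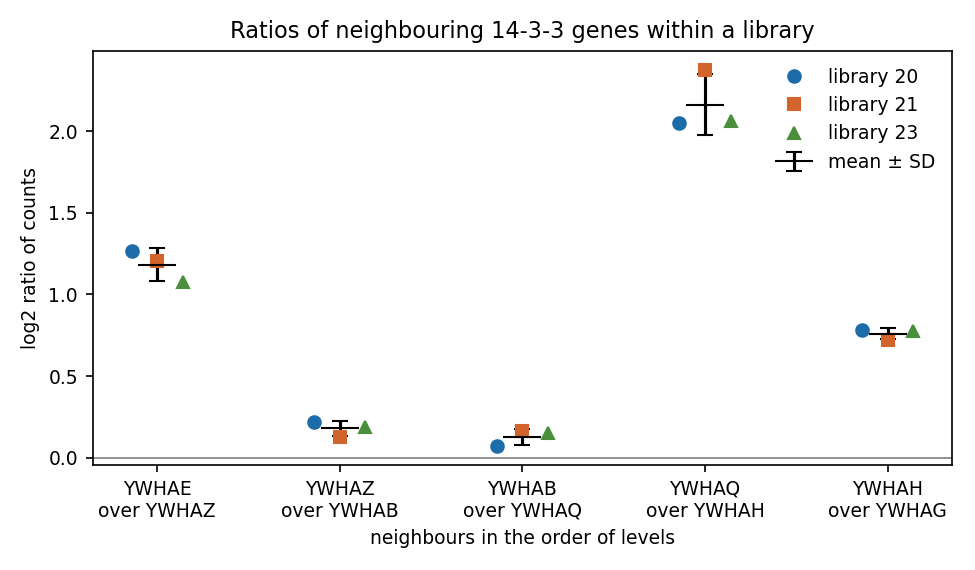
log2 ratio of counts between genes that are neighbours in the order of levels, with 1 point per library and a bar at the mean with its SD over 3 libraries. The ratios of YWHAZ over YWHAB and of YWHAB over YWHAQ lie between 0.07 and 0.22, just above 0, and those of YWHAQ over YWHAH are the highest of the 5 pairs shown, at 2.05 to 2.38. SFN is not shown.

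Had the counts been read evenly along the transcript, length would enter. The annotated transcripts used span 1320 nucleotides for SFN to 5248 for YWHAZ. Per kilobase, mean levels were 588 CPM for YWHAE, 209 for YWHAQ, 163 for YWHAB, 109 for YWHAZ, 56.8 for YWHAH, 16.3 for YWHAG and 0.524 for SFN. The order inside the second tier turned around on that scale, with YWHAZ below YWHAB and YWHAQ, whereas YWHAE stayed first and YWHAH, YWHAG and SFN stayed last.

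Between libraries the members varied like other genes of their level. In a 2-sided exact binomial test per gene and pair of libraries, conditional on endogenous totals and adjusted over 11424 genes and 3 pairs by Benjamini-Hochberg, 0 of 6 tested members differed, against 0.560% of all genes (64), so that 0 of 6 is what the background gives. The test allows for counting error only. Of the members' 18 tests 2 had an unadjusted p under 0.05, or 11.1%, while 6.94% of the tests of all genes did. These were YWHAB between libraries 20 and 23 (472 and 526 CPM, exact p = 0.035, adjusted 0.65) and YWHAH between libraries 21 and 23 (89.4 and 113 CPM, exact p = 0.047, adjusted 0.70). The SD as a percent of the mean was 2.55 for YWHAE and 2.62 for YWHAQ, 4.40 for YWHAZ and 5.96 for YWHAB, and 10.1 for YWHAG and 12.1 for YWHAH. Counting error alone would give 2.31, 3.86, 3.48, 3.70, 10.7 and 8.21 in the same order. The medians of genes within 2-fold of the same level were 3.09, 4.57, 4.25, 4.36, 10.5 and 8.36, and all 6 members lay between the 20.2nd and the 73.5th percentile of such genes.

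**Figure D4:**
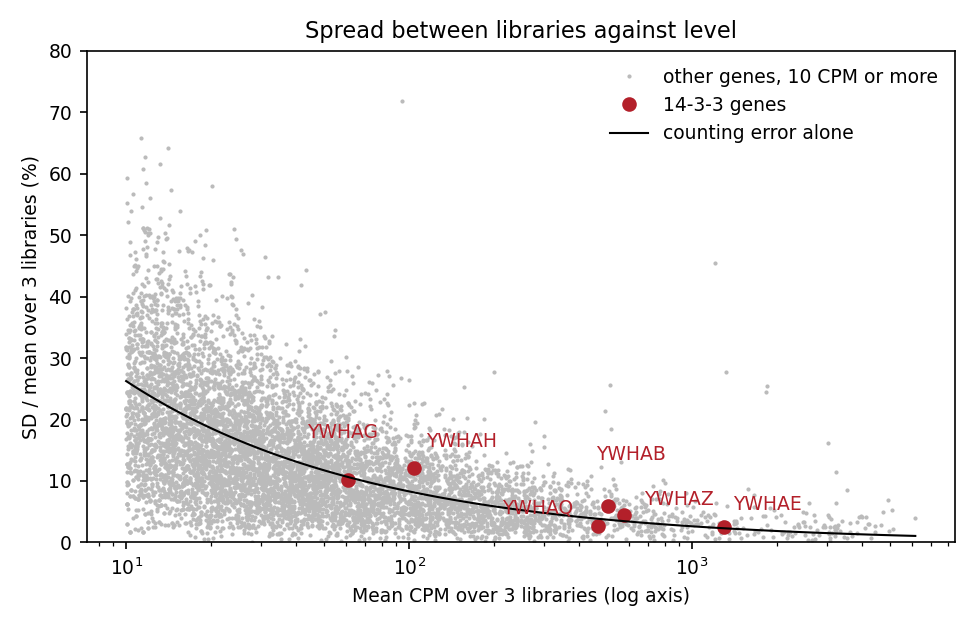
SD as a percent of the mean over the 3 libraries against mean CPM (log axis) for genes at 10 CPM or more, with 6 of the 14-3-3 genes in red and the line that counting error alone would give. The red points lie within the cloud of genes of like level, from 2.55% for YWHAE to 12.1% for YWHAH.

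The coding sequences of the family are alike but well apart at the nucleotide level, as aligned from the principal transcripts of GENCODE release 29. Each coding sequence is 738 to 768 nucleotides long. The closest pair was YWHAG and YWHAH with 78.5% identical positions, followed by YWHAB and YWHAZ with 73.9%, YWHAQ and YWHAZ with 73.7% and YWHAB and YWHAQ with 72.8%. YWHAE was 60.8 to 64.4% identical to the others, with SFN the most distant. The 3 genes of the second tier are thus also close in sequence, as are the 2 of the lower tier, a description over 7 genes with no test. That annotation also names 20 family pseudogenes, 8 of YWHAZ, 6 of YWHAE, 4 of YWHAQ and 2 of YWHAB, and 0 of these names were listed in the table. The labels do not say how reads shared with such copies were counted, and the levels of these 4 genes carry that uncertainty. YWHAH overlaps the protein-coding gene Z82190.2 on its own strand, which was not listed. Only whole gene spans were compared, and whether counts of both could be told apart was not tested. YWHAH also overlaps C22orf24 on the opposite strand, and that gene had 1 count in all libraries together. YWHAQ and YWHAE each overlap 1 annotated gene on the opposite strand, and neither of those was listed.

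Client genes had at most 76.7 CPM. Of 57 client genes in 6 lists, 52 were listed and 34 reached 10 CPM, against 44.6% of all listed genes. The median over the 57 was 13.8 CPM, beside 6.89 CPM for all listed genes and 463 CPM for the 14-3-3 genes. None of the 57 exceeded YWHAQ, which 2.02% of all listed genes did, and 2 exceeded YWHAG, which 14.5% did, so the distance to YWHAQ is common to most genes. Those were BAD, a promoter of apoptosis held inactive by 14-3-3, at 76.7 ± 7.80 CPM (SD, n = 3), and AKT1S1, the mTORC1 inhibitor PRAS40, at 73.5 ± 10.8 CPM. These levels are per 5′ end and were not tested against each other.

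Clients of the cell cycle and of apoptosis were all present, 10 of 10 at 10 CPM or more, a level that 44.6% of all listed genes reached. The other lists of this paragraph, at 50 to 62.5%, lay nearer to that share. After BAD came the phosphatase genes CDC25A at 39.2 ± 4.06 CPM and CDC25B at 37.5 ± 8.89 CPM. Of the RAF and stress kinase list 5 of 8 reached 10 CPM, among them ARAF at 38.3 ± 4.84 and MAP3K2 at 25.3 ± 4.34 CPM. Growth and metabolism clients reached it in 5 of 10 cases, with the lipid kinase gene PI4KB at 51.7 ± 12.7 and TBC1D4, a regulator of glucose transporter traffic, at 49.6 ± 6.95 CPM after AKT1S1. Of 17 clients in transcription and mRNA decay 10 did, led by ZFP36L2 at 58.5 ± 2.04, EDC3 at 33.8 ± 7.64 and FOXO3 at 28.1 ± 6.49 CPM. Of 8 cytoskeleton and channel clients 4 did, led by the kinesin gene KIF1C at 41.2 ± 4.55, PPP1R12A at 33.4 ± 4.72 and RND3 at 27.3 ± 1.58 CPM, and the channel genes KCNK3 and KCNK9 were not listed.

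The monoamine and melatonin enzymes, through which 14-3-3 proteins were first given a function, were near 0. TPH1, which encodes a tryptophan hydroxylase, had 0, 0 and 6 counts in libraries 20, 21 and 23, and TH, TPH2 and AANAT were not listed.

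Genes for enzymes that write and erase 14-3-3 sites were mostly above 10 CPM, a level that 44.6% of all listed genes reached. Of 28 kinases 19 reached 10 CPM and the median of the list was 20.7 ± 0.61 (SD, n = 3), led by the checkpoint kinase gene CHEK2 at 67.1 ± 5.36, PIM3 at 57.2 ± 8.70 and AKT1 at 48.3 ± 9.37 CPM. All 7 phosphatase subunits did, with a median of 163 ± 19.9 CPM, and PPP1CA at 286 ± 2.32, the PP2A scaffold gene PPP2R1A at 263 ± 14.3 and PPP1CC at 234 ± 16.8 CPM came first. The median of the phosphatase genes thus lay between the client genes and the second tier of 14-3-3 genes. PPP2R1B at 61.8 CPM and PPP2CB at 27.8 CPM were below the highest client gene, BAD at 76.7 CPM. YWHAH and YWHAG fell inside the phosphatase range of 27.8 to 286 CPM.

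**Figure D5:**
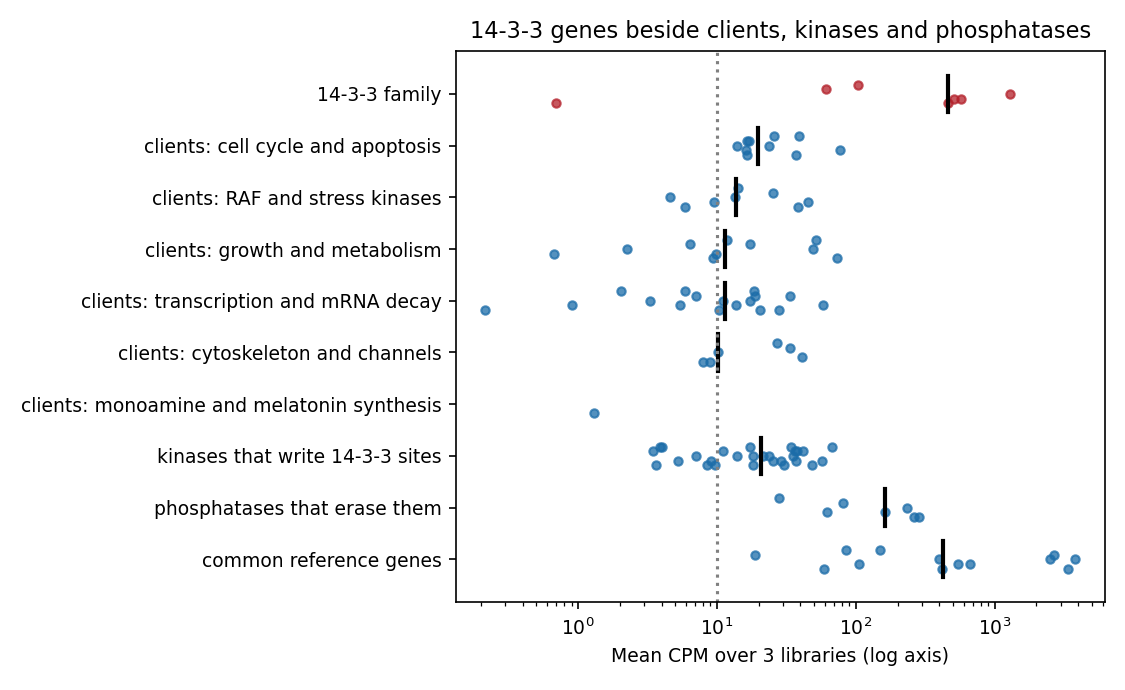
Mean CPM over 3 libraries (log axis) of each listed gene in the 14-3-3 family and in the lists of clients, kinases, phosphatases and reference genes, with a black bar at the list median, unlisted members counted as 0, and a dotted line at 10 CPM. The 14-3-3 median, 463 CPM, lies right of every client gene, and SFN and YWHAG and YWHAH lie left of it.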

How the data were processed

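The deposited file holds unnormalized counts made by the authors for 3 HEK293 libraries, with 17595 endogenous rows and 80 spike rows. The submitters' processing notes name STAR 2.4.0a, cutadapt 1.2.1 and the build hg19 (GRCh37). How genes were counted, on which annotation and strand, and whether molecular identifiers were collapsed is not given in the sources used here, which leaves it unknown whether a count is a read or a molecule. The 3 columns were used as unnumbered replicates of 1 group.

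From these counts, CPM of endogenous counts, shares and spike-scaled molecules were computed. Ratios between members used limma 3.58.1 on log2 ratios with a pseudocount of 0.5, for genes with at least 10 pooled counts. Libraries were compared with a 2-sided exact binomial test. The threshold was an adjusted p of 0.05. Alternatives covered TMM, DESeq2 1.42.0 size factors, spike totals, the filter, the pseudocount, an edgeR 4.0.16 quasi-likelihood fit, length scaling, a chi-square test, the CPM limit and leaving out each library.

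The members, lists and tests were chosen with earlier results of these data known. Named genes are the members, the genes next to each in mean log2 CPM, the top 3 of each list, unlisted members of a list and reference genes; a few of these are not reported here. Promoters came from RefSeq (GRCh38.p14), and transcripts, pseudogenes and overlaps from GENCODE release 29 (GRCh38), matched by name. The YWHAZ promoter and protein sequences were not analysed here. Work was done in R 4.3.3 and Python 3.11.15 (biopython 1.88, scipy 1.17.1, numpy 2.4.6, matplotlib 3.10.9, pandas 2.3.3).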

Additional observations from a re-analysis of the deposited data

How the results depend on the processing

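Depth limits SFN, at 1 count per library. Neighbours in the second tier stood apart by 0.18 and 0.13 log2 units on average without passing the limma test. What kept them from passing was not tested. The number of members at 10 CPM or more was 6 under all scalings and with each library left out. The family's share of endogenous counts was 0.299 to 0.303% when 1 library was left out and 0.301% under TMM, DESeq2 size factors and spike totals. Of 15 pairs, 12 passed when any 1 library was left out and without the count filter, 14 with edgeR and 15 per kilobase. The call lost was YWHAZ over YWHAQ (limma adjusted p = 0.080 without the filter). For genes with at least 50 pooled counts its limma adjusted p was 0.014, with the same ratio and SD. Per kilobase, YWHAZ over YWHAB turned to -0.58, YWHAZ over YWHAQ to -0.94 and YWHAB over YWHAQ to -0.36 on the log2 scale. Between libraries 0 members differed under all 9 alternatives, and the lowest adjusted p of a member was 0.072 to 0.97. Spike totals gave 0.072, with 7 of 18 member tests under an unadjusted 0.05. The share of all genes' tests under 0.05 on that scale was not computed, so the 7 cannot be set against a background. Over all genes, 64 differed with endogenous totals, 114 with DESeq2 size factors, 250 with spike totals, 42 without library 20 and 8 without library 23. Of 92 clients, kinases and phosphatases 87 were listed and 60 reached 10 CPM, beside 44.6% of all listed genes. This count depends on the limit: of the 92, 39 reached 20 CPM, where the share of all listed genes was not computed. With 1 library left out, 58 to 63 of the 92 reached 10 CPM. No paired analysis was possible because all libraries belong to 1 group and the columns carry no replicate number.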
